A study of Rattus norvegicus with 3 samples.

Results

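Atoh1, Barhl1, Barhl2, Pou4f1, Pou4f2 and Pou4f3, transcription factor genes of the dI1 lineage, were followed in RNA of rat commissural neurons. They were chosen by gene name, ignoring case, and each of the 6 matched 1 of the 26353 entries of the expression table. The RNA was polyadenylated RNA of commissural neurons, which send their axons across the ventral midline, isolated from spinal cords at embryonic day 13 and grown in vitro for 2 days, with libraries made by a stranded kit. All 3 libraries belong to 1 group, and no treated, mutant or control group is part of the series, so each gene was compared with other genes of the same library. The labels do not say whether the libraries came from separate cultures or embryos, so p-values reflect the spread among these samples alone, and that spread may be technical.

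The dI1 neurons are the most dorsal class of spinal interneurons and a main source of commissural axons. Their progenitors beside the roof plate make Atoh1, a basic helix-loop-helix factor of the Atonal family that pairs with E proteins, binds E-boxes in DNA and starts neuron formation. The newborn neurons lose Atoh1 and make the homeodomain factors Barhl1 and Barhl2, known in mouse as genes downstream of Atoh1, together with Lhx2 and Lhx9. Pou4f1, Pou4f2 and Pou4f3 (also named Brn3a, Brn3b and Brn3c) hold a POU domain and a homeodomain. They are best known from sensory ganglia, retinal ganglion cells and inner ear hair cells, and Pou4f1 also marks the dorsal cord classes dI1, dI2, dI3 and dI5.

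The stretches around the gene starts are shown for the factor that starts the lineage, for the higher of the BarH genes and for the highest of all 6. E-boxes of any form can so be seen beside the levels. Each runs 5′ to 3′ on the gene's strand over 250 bases before and 50 bases after the start, from RefSeq on build GRCr8, at chr4:95241683-95241982 (plus strand) for Atoh1, chr14:3485059-3485358 (plus strand) for Barhl2 and chr15:87674594-87674893 (minus strand) for Pou4f1. Capitals mark E-boxes, the letters CANNTG, which read the same on both strands. Every form is marked, and not only forms read by Atonal type factors. The deposited values were mapped to another build, rn6.
Atoh1: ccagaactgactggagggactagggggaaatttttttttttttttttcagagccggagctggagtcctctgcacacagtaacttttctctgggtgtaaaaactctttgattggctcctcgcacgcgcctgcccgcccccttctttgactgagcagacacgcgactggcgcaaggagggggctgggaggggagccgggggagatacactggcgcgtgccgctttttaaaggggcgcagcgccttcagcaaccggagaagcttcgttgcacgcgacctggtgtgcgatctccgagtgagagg
Barhl2: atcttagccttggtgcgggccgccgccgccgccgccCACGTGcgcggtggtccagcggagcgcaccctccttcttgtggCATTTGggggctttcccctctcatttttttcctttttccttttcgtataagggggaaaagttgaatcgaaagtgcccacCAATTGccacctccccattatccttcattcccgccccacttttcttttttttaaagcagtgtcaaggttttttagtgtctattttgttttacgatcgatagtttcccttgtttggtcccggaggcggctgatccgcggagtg
Pou4f1: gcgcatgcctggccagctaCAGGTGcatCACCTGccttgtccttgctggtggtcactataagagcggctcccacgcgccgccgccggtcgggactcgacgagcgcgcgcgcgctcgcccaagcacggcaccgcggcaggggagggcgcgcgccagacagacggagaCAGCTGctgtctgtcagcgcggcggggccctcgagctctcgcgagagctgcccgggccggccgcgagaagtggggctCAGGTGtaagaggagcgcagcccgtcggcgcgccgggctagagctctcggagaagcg

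RefSeq sequences were matched by symbol for 5 of the 6 genes, and Barhl1 is named only. The window of Pou4f1 held 4 E-boxes, that of Barhl2 3, that of Pou4f3 2, that of Pou4f2 1 and that of Atoh1 0. Of 33469 rat windows of the same 300 bases, 72.1% held at least 1 E-box, with a median of 1. CAGCTG, one of the E-box forms, was present in the windows of Pou4f1 and Pou4f2 with 1 match each and in 15.1% of all windows. A second form, CAGATG or its reverse complement CATCTG, was in none of the 5 windows and in 16.6% of all windows. These matches are descriptions of letters and not of binding.

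Of the 6 factors, 5 were expressed above 1 FPKM, the authors' unit, and Pou4f3 was not. By its name FPKM is scaled to transcript length and to mapped fragments, and how it was computed is not given here. Pou4f1 was the highest, the BarH genes and Pou4f2 came next, and Atoh1 was the lowest of the 5 that passed. The test was limma's one-sided moderated test of log2(FPKM + 0.1) against 1 FPKM over the 17611 entries above 0 in at least 1 library, with Benjamini-Hochberg adjustment and a threshold of 0.05. It called 63.7% of all entries, so 5 of 6 is read against that share, and 3 of the 5 calls were known before the genes were chosen. The median of the 6 mean levels was 17.0 FPKM, and that of all entries tested was 4.81 FPKM. The deposited values summed to 19897900 to 26236600 FPKM per library, most of it in 62 entries above 10000 FPKM. Scaling every library to a total of 1000000 left Pou4f1 alone of the 6 factors past the level of 1, beside 13.4% of all entries.

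Atoh1, the proneural factor of the dI1 progenitors (ENSRNOG00000006383), had 3.40, 2.96 and 2.75 FPKM in libraries 1, 2 and 3. All 3 values lay above 1 FPKM, with a coefficient of variation of 10.9% and a mean of 3.04 ± 0.332 FPKM (SD, n = 3; Benjamini-Hochberg adjusted p = 6.51e-07 by limma). Measured against every other entry within each library by limma, Atoh1 was higher than 41.0% and lower than 52.4% of the 17610 other entries.

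The BarH homeodomain genes are expressed in neurons that have left the cell cycle and, in the dorsal cord, mark dI1 neurons. Barhl2 (ENSRNOG00000002117) had 24.97, 31.46 and 27.87 FPKM in libraries 1, 2 and 3, a mean of 28.1 ± 3.25 FPKM (SD, n = 3). Barhl1 (ENSRNOG00000013209) had 18.41, 19.25 and 19.23 FPKM in libraries 1, 2 and 3, a mean of 19.0 ± 0.479 FPKM. Barhl2 was the higher of the pair in every library, and the values of the BarH genes did not overlap. Barhl2 varied more between libraries than Barhl1, with a coefficient of variation of 11.6% against 2.53%.

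Pou4f1 (ENSRNOG00000009669) had 61.42, 61.50 and 62.91 FPKM in libraries 1, 2 and 3, a mean of 61.9 ± 0.838 FPKM (SD, n = 3). As deposited, it was nearly the same in all libraries, with a coefficient of variation of 1.35%. On the log2 scale only 1.80% of the 11662 entries with a mean of at least 1 FPKM had a smaller SD. Each library's deviation from the mean of the others was also read relative to the median of all entries. Pou4f1 then deviated by 0.05, -0.14 and 0.08 in libraries 1, 2 and 3, so its evenness depended on the scale. Pou4f1 was higher than 91.6% of all other entries and lower than 5.88% in limma's two-sided test of the ratio within each library.

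Pou4f2, known above all as a factor of retinal ganglion cells (ENSRNOG00000012167), had 15.71, 14.02 and 15.38 FPKM in libraries 1, 2 and 3, a mean of 15.0 ± 0.896 FPKM (SD, n = 3). It passed the test against 1 FPKM (Benjamini-Hochberg adjusted p = 6.02e-11 by limma) and lay above 67.3% of all other entries. Pou4f3, known for its need in hair cells (ENSRNOG00000018842), had 0.20, 0.20 and 0.22 FPKM in libraries 1, 2 and 3. All 3 values were below 1 FPKM, and the gene missed the threshold (limma, Benjamini-Hochberg adjusted p = 1). The Pou4f proteins are close relatives; how the authors' counting treated reads shared by relatives is not given in the sources used here, so the lowest level, that of Pou4f3, is uncertain.

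**Figure D1:**
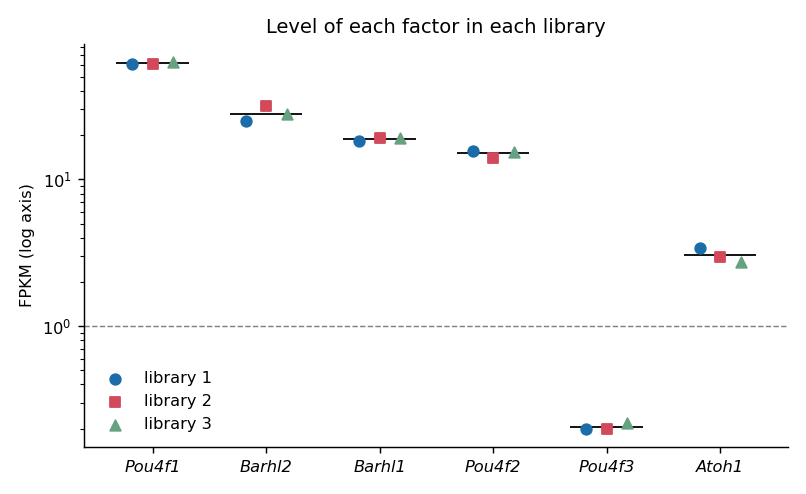
FPKM on a log axis of the 6 factors, with 1 symbol per library, a black bar at the mean of 3 libraries and a dashed line at 1 FPKM. Pou4f1 sits near 62 FPKM with little spread, Barhl2, Barhl1 and Pou4f2 follow between 14.02 and 31.46 FPKM, Atoh1 lies near 3 FPKM and Pou4f3 at 0.20 to 0.22 FPKM.

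Summed over the 6 genes, the factors held 124, 129 and 128 FPKM in libraries 1, 2 and 3. As far as FPKM corrects for transcript length, with lengths not given here, the parts of this sum can be compared. Pou4f1 made up 48.7 ± 1.02% of it (SD, n = 3), Barhl2 22 ± 2.12%, Barhl1 14.9 ± 0.0758%, Pou4f2 11.8 ± 0.921%, Atoh1 2.39 ± 0.311% and Pou4f3 0.162 ± 0.00848%. The order of the 6 levels was the same in all 3 libraries. In bulk RNA, fewer cells that make a factor and less RNA per cell cannot be told apart, so these parts are not parts of the cells.

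All 15 pairs among the 6 genes differed in limma's two-sided test of the log2 ratio within each library, with 1 fit per first-named gene against all other entries and Benjamini-Hochberg adjustment over the 17610 entries of each fit. These fits called 97.4% of entries for Pou4f1, 94.8% for Barhl2, 94.7% for Barhl1, 92.1% for Pou4f2, 91.8% for Pou4f3 and 93.4% for Atoh1, so a called pair is the usual case in this table and the size of the ratio carries the information. The pairs share genes and are not independent. The largest adjusted p over the 15 pairs was 0.00166, for Barhl1 and Pou4f2. Folds are on the log2(FPKM + 0.1) scale, which understates those of low genes. Intervals and p-values of ratios between genes cover the spread between libraries alone. They do not cover errors in the transcript lengths or read assignment behind each FPKM.

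Within the BarH pair, the ratio of Barhl2 to Barhl1 was 1.36, 1.63 and 1.45 in libraries 1, 2 and 3. Barhl2 therefore exceeded Barhl1 in 3 of 3 libraries, by 1.47-fold (95% interval 1.29 to 1.68, Benjamini-Hochberg adjusted p = 4.60e-06 by limma). With the variances of both genes moderated separately, limma's adjusted p was 7.94e-04. The difference did not pass when at least 1.5-fold was asked for. Both BarH genes lay well above the factor known to act before them: Barhl2 exceeded Atoh1 by 8.98-fold (7.33 to 11) and Barhl1 exceeded it by 6.10-fold (5.14 to 7.23), each in 3 of 3 libraries. The ratio of Barhl2 to Atoh1 ranged from 7.34 in library 1 to 10.6 in library 2.

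Within the Pou4f family, the ratio of Pou4f1 to Pou4f2 was 3.91, 4.39 and 4.09 in libraries 1, 2 and 3, and the fitted fold was 4.10 (3.66 to 4.60; Benjamini-Hochberg adjusted p = 2.09e-09 by limma). The ratio of Pou4f2 to Pou4f3 was 78.6, 70.1 and 69.9 in libraries 1, 2 and 3. Folds against Pou4f3 depend on the pseudocount, because its level is close to it. Across the families, Pou4f1 exceeded Barhl2 by 2.21-fold (1.94 to 2.52), Barhl1 by 3.26-fold (2.92 to 3.62) and Atoh1 by 19.9-fold (16.8 to 23.5). The smallest difference was that of Barhl1 over Pou4f2, at 1.26-fold (1.13 to 1.41), seen in 3 of 3 libraries and lost when at least 1.5-fold was asked for.

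**Figure D2:**
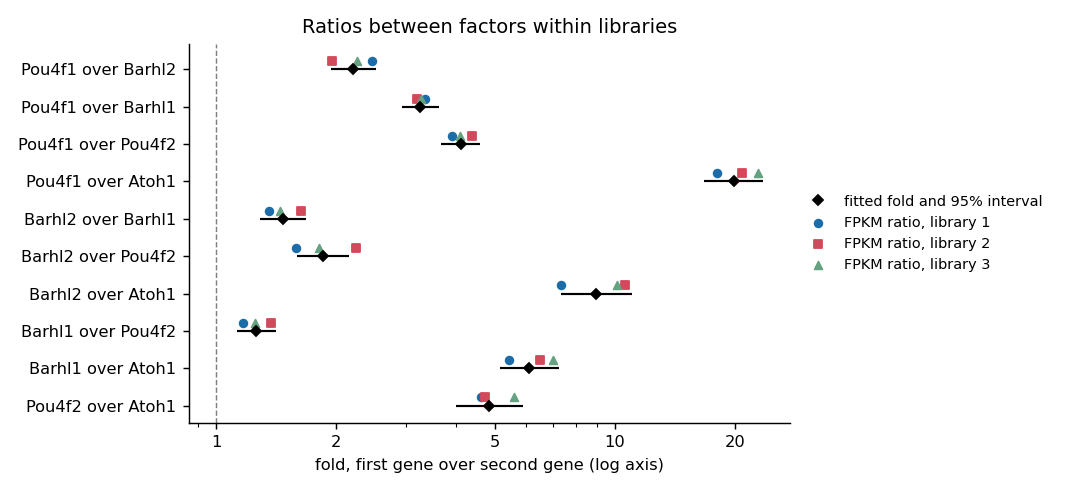
Ratios between 2 factors on a log axis for the 10 pairs without Pou4f3, with the FPKM ratio of each library as a coloured symbol and the fitted fold with its 95% interval as a black diamond and line. All symbols lie right of the dashed line at 1, from the ratio of Barhl1 to Pou4f2 at 1.17 to 1.37 up to that of Pou4f1 to Atoh1 at 18.1 to 22.9.

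The genes that accompany these factors in dI1 neurons were read next, from a list chosen with earlier results of these data known. All 7 matched genes of it lay above 1 FPKM, against 63.7% of all entries, and their median was 39.5 FPKM. Genes of this list are not all particular to dI1 neurons, and how much of their RNA came from dI1 neurons was not tested. Lhx9, the LIM homeodomain factor of dI1 neurons, had 5.03, 4.64 and 5.22 FPKM in libraries 1, 2 and 3. It was lower than both BarH genes in every library: Barhl2 exceeded it by 5.55-fold (95% interval 4.64 to 6.64) and Barhl1 by 3.77-fold (3.29 to 4.31), each called by limma and higher in 3 of 3 libraries. Lhx2 matched no symbol of the table and was not analysed here.

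Nhlh1, a helix-loop-helix factor of newborn neurons, had 32.08, 40.68 and 33.06 FPKM in libraries 1, 2 and 3. It was above both BarH genes in each library, and the fitted ratio of Barhl2 to Nhlh1 was 0.798 (Benjamini-Hochberg adjusted p = 5.91e-04 by limma). With the variances of both genes moderated separately, limma's adjusted p for this ratio was 0.0255. Of the axonal receptors and adhesion molecules on the list, Robo3 had 104 ± 25.4 FPKM, Dcc 62.6 ± 12.7, Cntn2 41.4 ± 6.94 and Boc 15.3 ± 0.396 (SD, n = 3). In libraries 1, 2 and 3, Robo3 had 118.21, 74.51 and 118.95 FPKM, Dcc 67.97, 48.1 and 71.64, and Cntn2 44.21, 33.44 and 46.42. Of the 7 matched genes of the list, 5 were lowest in library 2 and 2 were highest there. That library was lowest for 21.8% and highest for 62.3% of the 11662 entries with a mean of at least 1 FPKM. Slc17a6, the vesicular glutamate transporter that dI1 neurons use, had 39.5 ± 0.859 FPKM. Pan-neuronal genes, which cannot tell commissural from other neurons, passed in 6 of 6 cases, beside 63.7% of all entries. Tubb3 had 960 ± 70.2, Stmn2 435 ± 41.0, Dcx 423 ± 6.90, Map2 193 ± 2.20, Elavl3 144 ± 7.98 and Elavl4 70.2 ± 2.64 FPKM.

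Atoh1 acts only with partners, and those were abundant beside it. Of 19 genes on the list of its partners, inhibitors and upstream signals, 15 lay above 1 FPKM, beside 63.7% of all entries, with a median over the list of 16.1 FPKM. Tcf12, an E protein that pairs with Atoh1, had 95.7 ± 5.20 FPKM (SD, n = 3), and the other E proteins Tcf3 and Tcf4 had 30.2 ± 1.47 and 16.4 ± 0.368. Id4 and Id3, which bind E proteins and keep them from DNA, had 97.1 ± 2.53 and 48.3 ± 4.49 FPKM. Zic1, a zinc finger factor of the dorsal neural tube reported in chick to hold down Atoh1, was the highest of the list at 339 ± 17.0 FPKM.

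Signals and factors of the roof plate and the progenitors beside it differed in level. Gdf7, a roof plate signal needed for dI1 neurons in mouse, was listed at 0.04, 0.04 and 0 FPKM in libraries 1, 2 and 3, and Lmx1a, which specifies the roof plate, had 0.163 ± 0.0153 FPKM (SD, n = 3). Hic1, a repressor of Atoh1 in mouse, had 0.16, 0.04 and 0.02 FPKM. These 3 genes and Bmp4 (0.117 ± 0.0702) were the 4 that did not pass. Olig3, a factor of the dorsal progenitors that include those of dI1, had 10.7 ± 1.61 FPKM and Msx1 and Msx2, targets of BMP signals there, 4.66 ± 0.295 and 1.59 ± 0.0839. Bmp7, another roof plate signal, had 5.75, 6.31 and 5.26 FPKM in libraries 1, 2 and 3, above Atoh1 in each, and the fitted ratio of Atoh1 to Bmp7 was 0.534 (95% interval 0.429 to 0.663).

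The next list held relatives of Atoh1 in the Atonal family and dorsal proneural factors, with Neurod genes among them. Of its 10 matched genes, 7 lay above 1 FPKM, a share near the 63.7% of all entries. The median over the list was 2.78 FPKM, below the 4.81 FPKM of all entries. Neurog2, a factor of dI2 and other progenitors, had 7.52 ± 1.58 FPKM, and Atoh1 was at 0.416 of its level. Neurog1, made in the domain next to that of Atoh1, had 3.82 ± 0.676 FPKM. Atoh1 and Neurog1 did not differ past the threshold (ratio 0.806, 95% interval 0.639 to 1.02; Benjamini-Hochberg adjusted p = 0.0745 by limma), although Atoh1 was lower in 3 of 3 libraries.

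Neurod6 and Neurod1, bHLH factors of later neuron maturation, had 19.6 ± 6.25 and 4.05 ± 0.205 FPKM (SD, n = 3). Of the other Atoh genes on the list, Atoh8 had 1.45 ± 0.101 FPKM, and Atoh7, a retinal factor, was listed at 0, 0 and 1.03. Neurog3 was listed at 0 in all libraries and Ptf1a, the factor of inhibitory dI4 neurons, at 0.19, 0 and 0.08 FPKM. Atoh1 was lowest in library 3, as were 4 of the 7 genes of this list above 1 FPKM, Neurog1 among them, and 34.7% of the 11662 entries with a mean of at least 1 FPKM.

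The homeobox relatives of the BarH genes on the list, which leaves out Tlx3, were low. Of these 8 genes, 0 lay above 1 FPKM in limma's test, beside 63.7% of all entries. The same held at an unadjusted p under 0.05, since every mean was below that level. Listed at 0 in every library were 4 of them (Barx1, Bsx, Dbx1 and Tlx2). The list is a choice of relatives, so the count holds for these 8 genes alone. The highest was Tlx1, at 0.70, 0.96 and 0.71 FPKM in libraries 1, 2 and 3, below both BarH genes throughout. Tlx3, the close relative of Tlx1 read below with the markers of dI3 and dI5, lay at the BarH level. The ratio of Barhl2 to Tlx3 was 1.29 (95% interval 1.14 to 1.46, Benjamini-Hochberg adjusted p = 4.16e-04 by limma). That of Barhl1 to Tlx3 was 0.874 (0.774 to 0.987, adjusted p = 0.0357 by limma). With the variances of both genes moderated separately, limma's adjusted p was 0.0162 for Barhl2 and 0.111 for Barhl1. Barx2, Lbx2 and Dbx2 were above 0 in library 1 alone, at 0.16, 0.08 and 0.03 FPKM.

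Of the 10 matched POU genes outside class 4, 6 lay above 1 FPKM, a share near the 63.7% of all entries, and their list median was 4.05 FPKM, against 4.81 FPKM over all entries. The Pou4f genes made up 38% of the FPKM summed over 13 POU genes. Pou4f1 was the highest of the 13. Next came the neural class 3 genes: Pou3f3 had 49.8 ± 1.84, Pou3f2 27.9 ± 1.65 and Pou3f4 22.7 ± 3.21 FPKM (SD, n = 3). Pou4f1 exceeded Pou3f3 in 3 of 3 libraries, by 1.24-fold (95% interval 1.11 to 1.39, Benjamini-Hochberg adjusted p = 0.00200 by limma). With the variances of both genes moderated separately, limma's adjusted p was 0.0109.

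Pou4f2 was the sixth in this order, below Pou6f1 at 17.2 ± 0.758 FPKM, from which it did not differ past the threshold (ratio 0.873, 95% interval 0.742 to 1.03; Benjamini-Hochberg adjusted p = 0.104 by limma). It was above Pou2f2, a lymphoid and neural octamer factor, by 3.09-fold (2.59 to 3.69), in 3 of 3 libraries. Pou4f3 was the tenth. Pou2f3 and Pou5f1, a factor of pluripotent cells, were listed at 0 in all libraries.

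**Figure D3:**
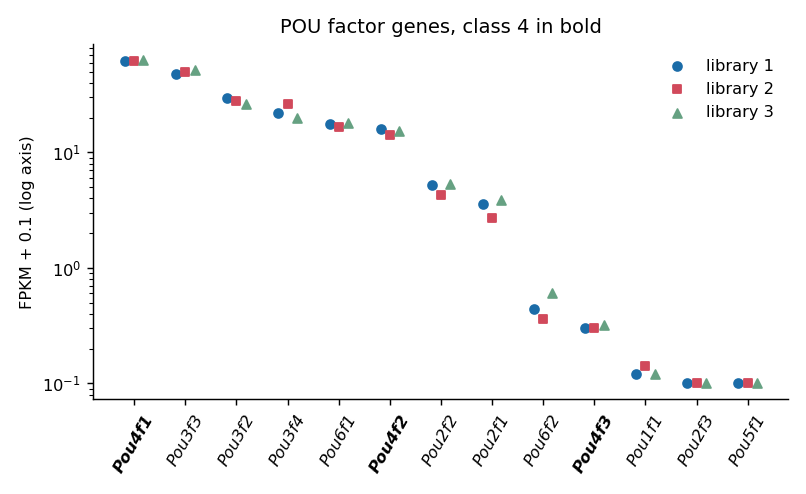
FPKM + 0.1 on a log axis of the 13 matched POU genes in order of their mean, 1 symbol per library, with the class 4 genes in bold. Pou4f1 is the first and Pou4f2 the sixth, while Pou4f3 lies among the genes below 1 FPKM.

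Several cell types other than dI1 neurons can carry Pou4f genes, and their markers were read beside them. Of the 9 markers of dI2, dI3 and dI5 on the list, 8 lay above 1 FPKM, beside 63.7% of all entries, with a median of 13.6 FPKM and a summed level of 158, 186 and 175 FPKM in libraries 1, 2 and 3. Lhx1, a LIM factor of dI2 and of inhibitory classes, had 66, 73.13 and 69.78 FPKM. The ratio of Pou4f1 to Lhx1 was 0.890 (95% interval 0.791 to 1.00; Benjamini-Hochberg adjusted p = 0.0557 by limma), lower in 3 of 3 libraries and not past the threshold. Lhx5, a factor of the same classes, had 30.3 ± 5.03, Foxd3 and Foxp2, listed for dI2, had 13.6 ± 0.760 and 6.37 ± 1.32, and the dI3 and dI5 factor Tlx3 had 21.8 ± 2.89 FPKM (SD, n = 3).

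Isl1, which works with Pou4f1 in sensory neurons and marks dI3, had 12.7 ± 0.269 FPKM, Lmx1b, a dI5 factor, 14.8 ± 2.91, Drgx 3.20 ± 1.04 and Phox2a 0.23 ± 0.01 (SD, n = 3). Pou4f1 lay above each of the 8 genes of the list other than Lhx1 in all libraries, by 2.06-fold over Lhx5 and 2.84-fold over Tlx3. Pou4f2 was close to several of them: its ratio was 1.10 to Foxd3 (95% interval 0.938 to 1.30) and 1.03 to Lmx1b (0.862 to 1.23), and neither passed the threshold (Benjamini-Hochberg adjusted p = 0.243 and 0.735 by limma). How much of the Pou4f1 and Pou4f2 RNA came from these classes was not tested.

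Primary sensory neurons of the dorsal root ganglia carry all of the Pou4f genes. Of 12 sensory ganglion markers, 10 did not lie above 1 FPKM, where 63.7% of all entries did. Sox10, a neural crest and satellite cell factor, was listed at 0, 0.03 and 0 FPKM in libraries 1, 2 and 3. Scn10a, the sodium channel of pain-sensing neurons, had 0.01, 0.02 and 0.01 FPKM. The exceptions were Tac1, a neuropeptide gene that cord neurons also express, at 86.3 ± 11.1 FPKM, and Calca at 1.71 ± 0.282 (SD, n = 3). Without Tac1, a choice made with its value known, the 11 other markers summed to 3.99 to 4.01 FPKM per library. Isl1, named above as a partner of Pou4f1 in sensory neurons, is not on this list and had 12.7 FPKM. How much of the Pou4f RNA came from sensory neurons was not tested.

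**Figure D4:**
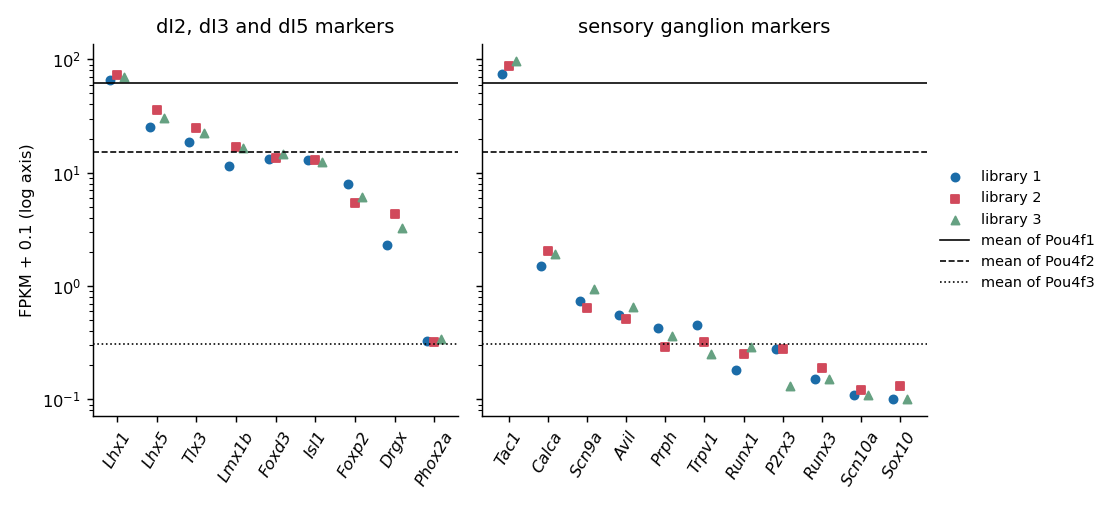
FPKM + 0.1 on a log axis of markers of the cord classes dI2, dI3 and dI5 (left) and 11 of the 12 markers of sensory ganglia (right), 1 symbol per library, with horizontal lines at the means of Pou4f1, Pou4f2 and Pou4f3. Most cord class markers lie between the lines of Pou4f3 and Pou4f1, with Lhx1 above, while the sensory ganglion markers shown other than Tac1 and Calca lie below 1 FPKM.

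Partners of the Pou4f factors and genes reported downstream of them in other systems passed in 12 of 17 cases, a share near the 63.7% of all entries, and the median over the list was 7.72 FPKM. Ina, the gene of alpha-internexin and a reported target of Pou4f1 in cultured cells, was the highest at 369 ± 16.3 FPKM (SD, n = 3). Snap25, a synaptic membrane protein gene, had 81.5 ± 11, and the survival gene Bcl2l1 62.8 ± 4.03 FPKM. At the other end, Gfi1, which depends on Pou4f3 in hair cells of the mouse, was listed at 0.02, 0 and 0 FPKM, and Eomes, which depends on Pou4f2 in the mouse retina, at 0.03, 0.03 and 0.

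The 6 factors differed in how they varied across libraries. Library 2 stood apart for the table as a whole: it held the highest value for 62.3% of the 11662 entries with a mean of at least 1 FPKM, and its median deviation from the mean of the other libraries was 0.13 on the log2 scale. Barhl2 deviated by 0.25 in library 2 and by -0.25 in library 1. Relative to the median of all entries these were 0.12 and -0.18. Pou4f2 was lowest in library 2, by -0.15, or -0.28 relative to the median of all entries, while Pou4f1 deviated by -0.02, or -0.14 relative to it.

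Atoh1 was highest in library 1, with a deviation of 0.25 on the log2 scale, above that of 94.3% of entries in the same library, and it was lowest in library 3 at -0.20. Relative to the median of all entries, Atoh1 deviated by 0.31, -0.17 and -0.16 in libraries 1, 2 and 3, so that its lowest library was then library 2. Barhl1 stayed between -0.06 and 0.03 as deposited and deviated by 0.01, -0.10 and 0.07 relative to the median of all entries, which turned its sign in libraries 1 and 2.

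As deposited, the highest value fell in library 1 for Atoh1 and Pou4f2, in library 2 for Barhl1 and Barhl2 and in library 3 for Pou4f1 and Pou4f3. Relative to the median of all entries, 5 of the 6 factors were lowest in library 2, among them Pou4f3 at -0.18, and Barhl2 was highest there. Whether the factors moved together therefore depended on the scale, and with 3 libraries no correlation was computed.

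**Figure D5:**
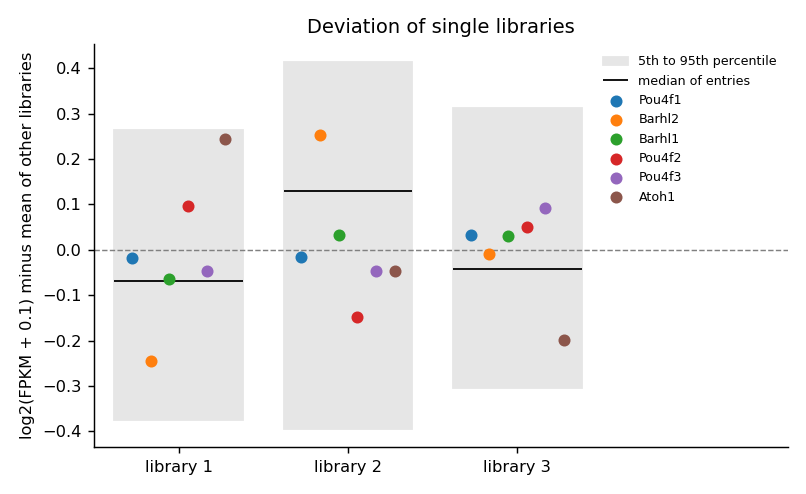
Difference on the log2(FPKM + 0.1) scale between each library and the mean of the other libraries for the 6 factors (coloured points), with the 5th to 95th percentile (grey) and the median (black bar) of the 11662 entries with a mean of at least 1 FPKM. The points stay inside the grey ranges, with Atoh1 near the upper edge in library 1 at 0.25 and Barhl2 at 0.25 in library 2.

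The entries whose level was nearest to that of a factor over the 3 libraries were found by the root mean square difference of log2(FPKM + 0.1), a measure of equal level and no more. For Pou4f1 they were Cxadr, Dvl3 and Gprasp1, at 0.02 to 0.03. For Barhl2 they were Smpd3, Mvd and Poldip2, and for Barhl1 Gnl2, Xrcc1 and RGD1564387. For Pou4f2 they were Wapal, Cdc42bpa and Nup98, and for Atoh1 Rab13, Gcfc2 and Mut, with differences up to 0.05.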

How the data were processed

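FPKM values were deposited by the authors in 1 table, 1 column for each of the 3 libraries. Build rn6, STAR, Trimmomatic 0.22 and FastQC are listed per the submitters' processing notes. How FPKM was computed, from which annotation and with which strand setting, is not given in the sources used here. Summed FPKM was 25032100, 19897900 and 26236600 in libraries 1, 2 and 3, most of it in 62 entries above 10000 FPKM. FPKM gives no depth, so no counting intervals were computed, and whether a 0 is a failed estimate is not known. Pearson's r of log2 values over 8363 named entries of at least 5 FPKM was 0.960 to 0.981 between libraries, and 0.0957% to 0.323% of values were identical, so all 3 counted as separate samples.

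Values were used as log2(FPKM + 0.1) and tested with limma 3.58.1 (statmod 1.5.0, R 4.3.3) with a robust, trended prior, and p-values were adjusted by Benjamini-Hochberg over all entries tested. An exact sign-flip test of 3 libraries cannot go below p = 0.25. Ratios of 1 gene to all others share that gene's error, so a fit with separately moderated variances was added after seeing the data. On simulated data of 17611 entries, the level test called 47 of 50 entries at 2 FPKM and 0 of 50 at 1 FPKM. The ratio test called 50 of 50 at a fold of 1.5, 37 of 50 at 1.2 and 0 of 50 at 1. All simulated ratios shared 1 draw of a reference gene set to vary less than Barhl2, Atoh1 and Pou4f2 did. These simulated ratios therefore give no rate of false calls for such genes. A further simulation with a more variable reference gene was run, and its counts are not reported here. Of 97 list genes, 3 matched no symbol; where a symbol had more than 1 entry, the highest was used. Genes and lists were chosen with earlier results of these data known. From lists of over 6 genes the 4 highest and 2 lowest were named, and all of the dI1 and the dI2, dI3 and dI5 lists; the other genes named were chosen after their values were seen. Some genes that this rule names are not reported here, though they count in their lists. For each factor above 1 FPKM the 3 nearest entries were named. Alternatives were other pseudocounts (0.01, 1), filters, scalings, levels (0.5 and 5 FPKM), priors, a margin of 1.5-fold and each library left out. Figures used matplotlib 3.10.9.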

Additional observations from a re-analysis of the deposited data

How the results depend on the processing

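With each library rescaled to a sum of 1000000 over all entries, most of it in 62 entries, 1 of the 6 factors lay above 1 on that scale, Pou4f1. Barhl2 was then at 0.23 (log2 over 1; limma, adjusted p = 0.714), and Barhl1, Pou4f2 and Atoh1 turned to -0.28, -0.58 and -2.26. On this scale 24 list genes passed instead of 62. They were 5 of the dI1 list, 6 pan-neuronal genes, 6 partners and regulators of Atoh1 and 0 of the Atonal and proneural list. The rest were 1 other POU factor, 4 partners and targets of Pou4f, 1 marker of dI2, dI3 and dI5 and 1 sensory marker. Against 5 FPKM, Atoh1 turned to -0.71, and 3 genes of the Atonal and proneural list and 1 sensory marker passed. Against 0.5 FPKM, or rescaled without the entries above 10000 FPKM, 1 BarH relative passed. The count of factors above the level was within 1.5 times of 5 under the 13 other alternatives, and the count of pairs called was 15 under 10 of the 11 alternatives for pairs. At a margin of 1.5-fold it was 13, without Barhl2 over Barhl1 (adjusted p = 0.701) and Barhl1 over Pou4f2 (adjusted p = 1; limma). With separately moderated variances the largest adjusted p over the 15 pairs was 0.00879. Leaving out any 1 library changed no call of a factor or of a pair. Folds against Pou4f3 moved with the pseudocount: the log2 ratio of Pou4f1 to it was 7.66, 8.16 with 0.01 and 5.70 with 1. No paired analysis was possible because there is 1 group. FPKM without depth limits what can be said of Pou4f3 and of genes listed at 0.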
